A study of Mus musculus with 4 samples.

Results

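Cells that carried RNA of Tnmd or Scx beside collagen RNA were picked out of the developing mouse molar to describe its tendon and ligament progenitors. A barcode was kept when it held at least 1000 UMIs with under 10% of them mitochondrial. A kept barcode was chosen when it had at least 3 UMIs of Tnmd and Scx together and at least 5 UMIs of Col1a1, Col1a2 and Col3a1 together, with 0 UMIs of Epcam, Ptprc and Pecam1 and at most 1 UMI of Ibsp and Dspp. Of 56940 deposited barcodes 42164 were kept, and 979 of these were chosen. The measured counts of these 10 genes chose the cells, so the levels of those genes are given as a description.

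Tendons and ligaments are cords of aligned collagen fibrils that join muscle to bone and bone to bone. Their cells arise from progenitors that express the transcription factor Scx, and the maturing cells express Tnmd, a transmembrane glycoprotein, together with small leucine-rich proteoglycans that regulate collagen fibrils. In the tooth, the periodontal ligament comes from the dental follicle, while the dissected jaw tissue around a molar can also hold attachments of the jaw muscles.

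Single-cell libraries were made from wild-type C57BL/6J mice, of genotype WTB6 in the labels, with no transgene or treatment. The 4 groups were the maxillary and the mandibular molar tooth organs of embryos at E15.5 (E15 in the titles of the deposited samples) and of pups at P1. Each group was 1 library in which 6 tooth organs were pooled. With 1 library per group no test between groups was possible, and every interval below is an exact 95% interval (Poisson for levels, binomial for shares) that covers counting error only.

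The libraries held 10885 barcodes with 109723360 UMIs (E15.5 maxillary), 7947 barcodes with 86659227 UMIs (E15.5 mandibular), 18707 barcodes with 128812956 UMIs (P1 maxillary) and 19401 barcodes with 139873101 UMIs (P1 mandibular). The P1 libraries shared 7131 barcodes, against 28 to 70 for the other pairs of libraries, and 7093 of the 7131 had more UMIs in the P1 maxillary library. Shared barcodes were removed from the P1 mandibular library, which took 6597 of its 16014 barcodes that passed the depth and mitochondrial limits. Among the 82 cells chosen in the P1 maxillary library 47 had such a barcode, with a median of 11137 UMIs there and 2695 in the P1 mandibular library. The other 35 had a median of 3238 UMIs. P1 maxillary results are therefore given for all 82 cells and, where they turn on the shared barcodes, for the 35 alone, and from which jaw the 47 came cannot be told apart in these data.

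The chosen cells numbered 308 in the E15.5 maxillary library, which was 3.18% (2.84 to 3.55) of its 9679 kept barcodes. They numbered 238 in the E15.5 mandibular library, or 3.62% (3.18 to 4.10) of 6582, and 351 in the P1 mandibular library, or 3.73% (3.35 to 4.13) of 9417. In the P1 maxillary library the 82 cells were 0.497% (0.396 to 0.617) of 16486, and the 35 cells were 0.366% of the 9563 barcodes found in that library alone. The P1 maxillary share was thus the lowest, and the other 3 intervals overlapped. Depth differed between the libraries, with medians of 10733, 13625, 8098 and 9753 UMIs per chosen cell in the order E15.5 maxillary, E15.5 mandibular, P1 maxillary and P1 mandibular. Kept barcodes with at least 2000 UMIs (9140, 6064, 13810 and 8729 in that order) were then thinned to 2000 UMIs. Those with at least 1 Tnmd or Scx UMI made up 5.11%, 5.19%, 2.32% and 5.72% of them. The 539, 518, 2676 and 688 kept barcodes with fewer UMIs were left out. The P1 maxillary library was thus also lowest among these thinned barcodes, with the limit at 1 UMI in place of 3.

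**Figure D1:**
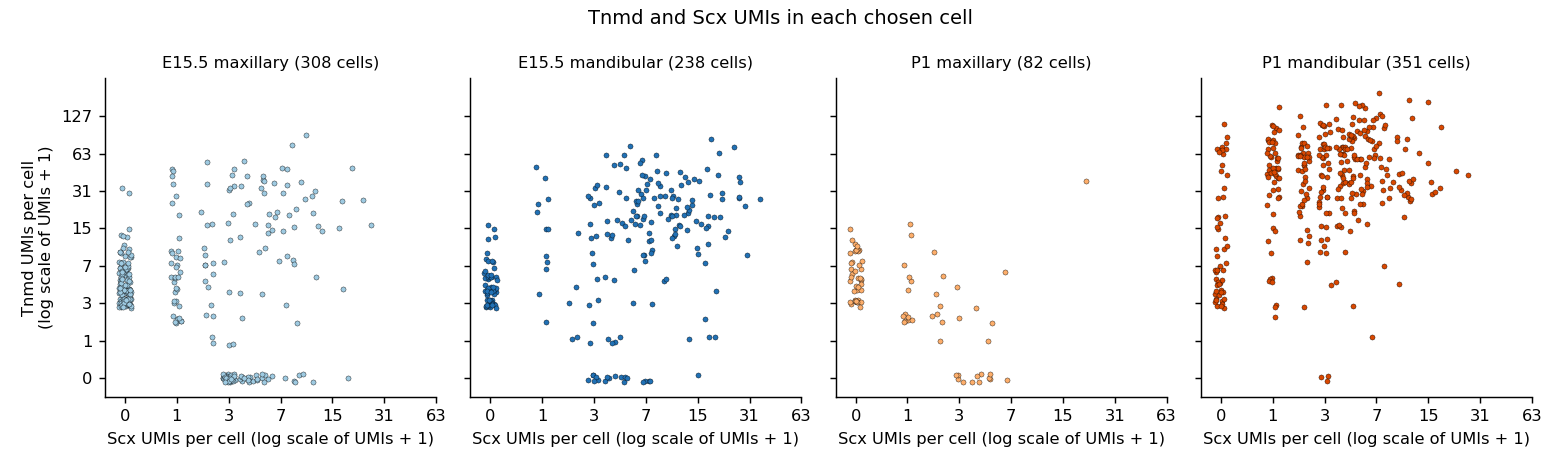
UMIs of Scx (horizontal axis) and Tnmd (vertical axis) in each chosen cell, on log scales of UMIs + 1 with a small jitter. There is 1 panel per library, of 308, 238, 82 and 351 cells. Cells of the P1 mandibular library reach up to 197 Tnmd and Scx UMIs together, while most cells of both maxillary libraries lie near the limit of 3.

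Scx (chr15:76457452-76459458, mm10, plus strand), a basic helix-loop-helix factor of tendon progenitors, had 224, 449, 169 and 358 CPM (UMIs of the gene scaled to 1000000 UMIs of the cell group) in the chosen cells, in the same library order. Scx lies within an intron of Bop1, on the opposite strand. Tnmd (chrX:133850980-133865577, plus strand), the marker of maturing tendon cells, had 752, 1091, 552 and 4686 CPM. Tnmd was thus 4 times or more as high in the P1 mandibular cells as in any other library, while Scx was not highest there. In immune cells (at least 2 Ptprc UMIs, 317, 207, 213 and 369 cells) Tnmd was at 3.64, 11.2, 2.37 and 6.00 CPM and Scx at 2.34, 2.41, 0 and 0.273 CPM. The sum of Tnmd and Scx UMIs per chosen cell had medians of 5, 19, 5 and 48. Just inside the limit, at 3 UMIs, lay 90, 26, 23 and 13 chosen cells, and just outside it, at 2 UMIs, lay 162, 59, 69 and 44 barcodes.

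The chosen cells were not uniform in these markers. Both genes were detected in 122, 163, 28 and 292 cells (39.6%, 68.5%, 34.1% and 83.2% of the chosen cells), Tnmd without Scx in 126, 56, 42 and 56, and Scx without Tnmd in 60, 19, 12 and 3. Cells with both genes were most common in the mandibular libraries. Of the 35 P1 maxillary cells with an unshared barcode 22 held both genes, against 6 of the 47 with a shared barcode, of which 32 held Tnmd alone.

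Scx belongs to the factors that bind E-boxes. Of the 6 tendon matrix genes that were higher in the chosen cells of all 4 libraries, the promoters of the 3 whose window lay outside annotated exons are shown. Each is the 250 bases before the RefSeq start of the gene on GRCm38.p6 (mm10), 5′ to 3′ on the strand of the gene, with every CANNTG, the E-box letters, in capitals. They belong to Fmod (chr1:134037004-134037253, plus strand), Thbs4 (chr13:92794819-92795068, minus strand) and Cilp (chr9:65264930-65265179, plus strand).
Fmod: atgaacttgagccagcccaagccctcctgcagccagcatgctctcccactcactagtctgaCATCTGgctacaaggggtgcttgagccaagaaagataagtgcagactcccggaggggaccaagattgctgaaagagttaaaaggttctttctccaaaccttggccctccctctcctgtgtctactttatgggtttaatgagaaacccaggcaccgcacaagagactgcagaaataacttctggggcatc
Thbs4: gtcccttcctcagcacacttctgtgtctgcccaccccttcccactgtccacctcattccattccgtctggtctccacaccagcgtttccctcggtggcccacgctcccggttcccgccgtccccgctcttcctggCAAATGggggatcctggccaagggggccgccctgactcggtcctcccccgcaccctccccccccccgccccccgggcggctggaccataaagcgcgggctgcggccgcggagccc
Cilp: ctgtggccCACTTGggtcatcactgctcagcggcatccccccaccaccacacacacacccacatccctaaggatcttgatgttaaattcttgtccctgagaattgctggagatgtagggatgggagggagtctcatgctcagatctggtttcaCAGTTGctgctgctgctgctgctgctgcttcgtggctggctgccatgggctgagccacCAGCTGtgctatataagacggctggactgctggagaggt
Fmod held CATCTG 189 bases before its start. Thbs4 held CAAATG 115 bases before its start. Cilp held 3 matches, which began 242, 97 and 39 bases before its start. CANNTG reads the same pattern on both strands and was present in 66% of 27025 RefSeq promoters of this length, and CAGATG or its reverse complement CATCTG, a subset of it, in 14.5%. The Htra3 window held 3 matches of CANNTG, and the Tnmd, Kera and Tgfbi windows held none, but all 250 bases of the Kera window, 63 of the Tgfbi, 28 of the Tnmd and 2 of the Htra3 window lie within exons of the annotation that gives the gene positions. Among 15 genes higher in all 4 libraries that had a promoter entry, 9 held CANNTG and 5 held CAGATG or CATCTG, and a match shows the letters only.

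The first comparison asked what set the chosen cells apart from the rest of the collagen-positive cells of the same library, using barcodes that met the same limits but had 0 Tnmd and Scx UMIs (4558, 2553, 8090 and 3808 cells). Among 6484 genes that reached 20 CPM in either group of each library, 23 (0.355%) were at least 2-fold higher in the chosen cells of all 4 libraries and 26 (0.401%) were at least 2-fold lower. The higher ones included 6 genes of the tendon matrix list and the lower ones 3 markers of connective tissue sheath fibroblasts. With shared barcodes removed from both groups of the P1 maxillary library (35 chosen and 4265 other cells), 18 of the 23 were at least 2-fold higher there. Acta2, P4ha3, Bmpr1b and Osbpl3 were not, and Tspan2 had 0 UMIs in the 35 cells. Of the 26 lower genes 15 were at least 2-fold lower there, 7 had 0 UMIs in the 35 cells, and Fgf10, Dach1, Ntm and Hapln1 were less than 2-fold lower. Genes that accompany Tnmd and Scx in these cells belong to the pattern by which the cells were chosen, so the counts are a description.

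Among the tendon transcription factors, Mkx, a homeobox factor of tendon differentiation, had 120, 142, 131 and 370 CPM in the chosen cells and 26.7, 15.8, 34.1 and 26.0 CPM in the other collagen cells. It was higher by 2.16 (2.0 to 2.32), 3.17 (3.0 to 3.34), 1.94 (1.63 to 2.24) and 3.83 (3.72 to 3.94) on the log2 scale, and by 1.37 (0.67 to 1.996) in the 35 unshared P1 maxillary cells against the unshared other cells. Eya2, a cofactor of sine oculis homeobox factors, had 45.6, 83.1, 82.4 and 130 CPM against 18.3, 34.8, 8.79 and 25.4. Osr1, an odd-skipped factor of connective tissue precursors, had 20.8, 14.9, 4.05 and 7.81 CPM against 116, 101, 40.8 and 38.4. Of the 10 measured genes of this list Mkx and Eya2 were thus at least 2-fold higher in all 4 libraries and Osr1 at least 2-fold lower, and the median log2 ratio of the list was 0.40, against -0.06 for all genes tested. Egr1, an early response factor linked to tendon collagen expression, was at 529, 333, 463 and 727 CPM against 498, 337, 532 and 439, which was no 2-fold difference in any library.

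The tendon matrix list had 6 of 23 measured genes at least 2-fold higher in all 4 libraries, Fmod, Kera, Thbs4, Cilp, Htra3 and Tgfbi, and 0 lower, with a median log2 ratio of 0.57. Htra3, a secreted serine protease, had 54.7, 92.1, 71.6 and 204 CPM in the chosen cells and 20.3, 29.7, 13.4 and 41.2 CPM in the others. Fmod (chr1:134037254-134048277, plus strand), the fibril-binding proteoglycan fibromodulin, had 100.3, 148, 85.1 and 797 CPM in the chosen cells against 14.4, 5.71, 21.7 and 16.2 in the others. Thbs4 (chr13:92751590-92794818, minus strand), a thrombospondin of the tendon and muscle attachment matrix, had 298, 493, 396 and 938.5 CPM against 45.9, 70.6, 11.8 and 69.4. For both genes the level in the chosen cells was highest in the P1 mandibular library and was above that of the other collagen cells in each library. Cilp (chr9:65265180-65280605, plus strand), a matrix protein first known from cartilage, had 43.5, 100.5, 36.5 and 236 CPM against 0.771, 1.87, 0.580 and 3.04, with log2 ratios between 5.75 and 6.28, the highest when genes were ranked by their weakest library. Kera (chr10:97606879-97613692, plus strand), the keratan sulfate proteoglycan keratocan, varied most, with 102, 185, 32.4 and 1148 CPM against 35.7, 14.5, 10.6 and 4.54. Its log2 ratio ranged from 1.51 (1.34 to 1.67) in the E15.5 maxillary to 7.98 (7.78 to 8.18) in the P1 mandibular cells, and in the P1 maxillary library it was 1.61 (0.96 to 2.19). Between the unshared chosen and the unshared other cells of that library the log2 ratio was 2.40 (1.71 to 3.02) for Kera, 3.09 for Fmod, 3.94 for Thbs4, 6.80 for Cilp and 2.95 for Htra3.

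Shares of cells gave the same order of libraries as the levels over all chosen cells. Without the shared barcodes Kera stood at 171 CPM in the P1 maxillary library, above the 102 CPM of the E15.5 maxillary one, and was detected in 28.6% of the 35 cells. Kera was detected in 22.1%, 46.2%, 13.4% and 84.6% of the chosen cells and in 1.58%, 0.966%, 0.470% and 0.813% of immune cells, whose median depths were 9984, 14013, 3474 and 7880 UMIs. Thbs4 was detected in 57.5%, 77.3%, 62.2% and 93.7% of the chosen cells and in 3.79%, 4.83%, 0.939% and 5.69% of immune cells. At 2000 UMIs per cell the Kera shares of the chosen cells were 12.3%, 26.7%, 9.09% and 68.9% and the Thbs4 shares 33.1%, 50%, 37.7% and 73.7%. Over all chosen cells of each library both genes lay far above the level of free RNA that the immune cells show. For Kera this does not extend to the 47 shared P1 maxillary cells. The P1 maxillary chosen cells held 16 Kera UMIs at 3 to 9 and 8 at 10 or more Tnmd and Scx UMIs, and 22 of these lay in the 35 unshared cells.

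**Figure D2:**
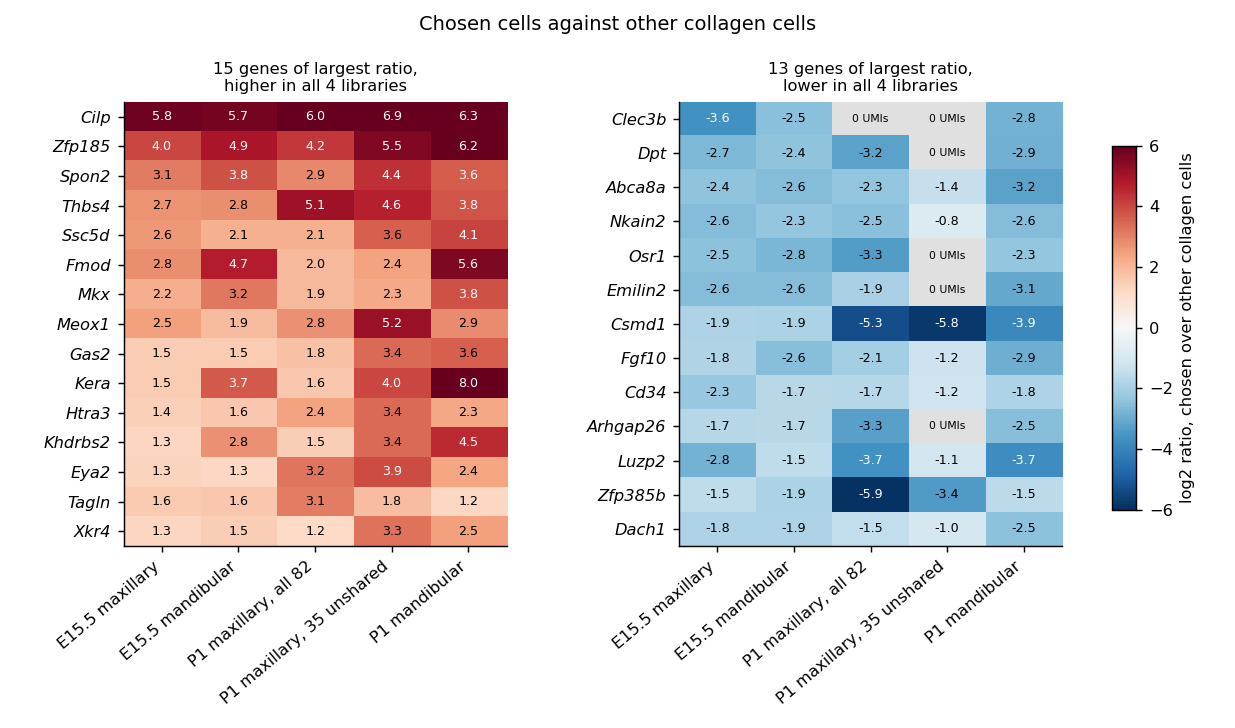
Log2 ratio of each gene's level in the chosen cells over the other collagen cells (colour, limited to 6 in each direction), for 15 genes with the highest and 13 genes with the lowest ratios, ranked by the weakest of the 4 libraries. Columns are the libraries, with P1 maxillary shown for all 82 cells and for the 35 unshared ones against the same other cells, and grey cells marked "0 UMIs" had none in one group. Kera and Khdrbs2 are near 1.5 or lower in the first column and above 4 in the last.

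Outside the tendon lists, Zfp185, which encodes a LIM domain protein of the actin cytoskeleton, had 53.6, 127, 47.3 and 179 CPM in the chosen cells against 3.35, 4.30, 2.51 and 2.49. Spon2, a secreted matrix protein, had 72.0, 166, 44.6 and 129.5 CPM against 8.34, 11.8, 6.05 and 10.4. Meox1, a homeobox factor of the somites and their derivatives, had 44.3, 73.8, 20.3 and 67.9 CPM against 8.07, 19.9, 3.01 and 9.38. In the 35 unshared P1 maxillary cells they stood at 117, 124.6 and 109 CPM. These genes were at least 2-fold higher in each library, as were Ssc5d, Gas2, Khdrbs2, Xkr4, P4ha3 (a prolyl 4-hydroxylase subunit that modifies collagen), Olfml2b, Pip5k1b and Osbpl3. Acta2 and Tagln, smooth muscle actin and an actin-binding protein, were at 264, 399, 560 and 98.8 CPM and at 148, 198.5, 436 and 65.4 CPM. In the P1 maxillary library Acta2 stood at 560 CPM in all 82 cells and at 62.3 in the 35 unshared ones, against 60.6 in all other collagen cells and 111 in the unshared ones.

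Among the lower genes were 3 of 11 measured markers of connective tissue sheath fibroblasts, Dpt, Clec3b and Cd34. Dpt, the matrix protein dermatopontin, had 16.0, 11.3, 5.4 and 7.27 CPM in the chosen cells against 104, 60.6, 50.2 and 53.9. Clec3b, tetranectin, had 3.20, 17.7, 0 and 28.0 CPM against 39.6, 101, 23.1 and 202. The median log2 ratio of the list was -0.91, and the summed level of its 17 genes was 1154, 1039, 1083 and 2281 CPM in the chosen cells and 1623, 1621, 1191 and 2063 CPM in the others, so that in the P1 mandibular library the sum was not lower. Fgf10, a growth factor of mesenchyme, was also lower in each library. In the 35 unshared P1 maxillary cells Dpt and Clec3b had 0 UMIs, and Fgf10 stood at 31.2 CPM against 51.4 in the unshared other cells. Fibroblasts with at least 3 UMIs of Dpt and Clec3b together and 0 of Tnmd and Scx numbered 804, 636, 409 and 945. In them Mkx stood at 7.75, 5.64, 6.05 and 4.29 CPM and Fmod at 3.12, 1.22, 6.28 and 3.94. Both genes were below the chosen cells of the same library in every case. Dcn, the proteoglycan decorin, did not follow this order, with 923, 1259, 646 and 3601 CPM in the chosen cells and 2230, 2232, 2848 and 3346 in these fibroblasts.

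Several lists of genes showed no member that was 2-fold apart in all 4 libraries. This held for the 14 measured fibrillar and associated collagens (median log2 ratio 0.11), 17 genes of the TGF-beta pathway (0.39), 8 of the hedgehog pathway (0.21), 12 Wnt ligands and receptors (0.10), 8 Wnt inhibitors and modulators (-0.55), 4 Wnt targets (-0.34) and 22 cell cycle genes (-0.01). It also held for 7 dental papilla and follicle genes (0.15), 11 stress genes (0.11), 4 erythroid, 3 pericyte, 3 skeletal muscle and 2 osteoblast genes and 1 gene of odontoblasts and ameloblasts. Single members were 2-fold apart in a few lists. Bmpr1b, a BMP receptor, was higher among 9 BMP pathway genes, P4ha3 among 19 collagen processing genes and Meox1 among 17 jaw and positional genes. Fgf10 was lower among 6 FGF pathway genes, and Hapln1, a link protein of the cartilage matrix, among 5 enthesis and cartilage genes. Of 9 genes of the mechanical response Acta2 and Tagln were higher, with a list median of 0.83, but the weakest log2 ratio of Tagln turned to -0.32 in cells with 10 or more Tnmd and Scx UMIs, and that of Acta2 to -0.83 (-2.04 to 0.15) in the P1 maxillary library without shared barcodes. Wnt inhibitors were clearest in the P1 mandibular library, where 381 of 7334 genes (5.19%) were at least 2-fold higher in the chosen cells and 749 (10.2%) were lower. There 9 of 12 measured Wnt inhibitors and modulators were lower and 1 was higher, and Wif1, a secreted Wnt binder, had 165 CPM against 579. In the same library 16 of 26 tendon matrix genes were higher and 5 lower, with a median of 1.93, and 8 of 10 measured osteoblast and mineral genes were lower.

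The rule's limit on Tnmd and Scx UMIs cut through a gradient, which was followed in collagen cells with 0, 1 to 2, 3 to 9 and 10 or more UMIs of the pair. In the E15.5 maxillary library Thbs4 stood at 45.9, 84.8, 174 and 597 CPM over these steps, and Mkx at 26.7, 55.0, 89.2 and 193. In the P1 mandibular library Thbs4 stood at 69.4, 113, 396 and 1006 CPM, and Fmod at 16.2, 26.2, 102 and 884. Kera behaved differently, with 35.7, 9.66, 12.1 and 317 CPM in the E15.5 maxillary library and 14.5, 6.95, 32.1 and 274 CPM in the E15.5 mandibular one. In the E15.5 libraries Kera was thus lowest at 1 to 2 UMIs and highest at 10 or more. Cells with 10 or more UMIs numbered 94, 148, 10 and 306.

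Runx2, a factor of osteoblast and dental mesenchyme differentiation, took the opposite course at its upper end. It stood at 429, 747, 971 and 269 CPM over the 4 steps in the E15.5 maxillary library, at 240, 291, 638 and 60.2 CPM in the E15.5 mandibular library, and at 224, 493, 977 and 28.5 CPM in the P1 mandibular library. In these 3 libraries Runx2 was highest in cells with 3 to 9 UMIs and lowest in those with 10 or more. In the P1 maxillary library it stood at 265, 1063, 1594 and 2008 CPM, with 10 cells in the last step. Without shared barcodes it stood there at 412, 847, 479.5 and 190 CPM, from 4 cells in the last step, and Kera at 32.5, 30.9, 124 and 507 CPM.

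**Figure D3:**
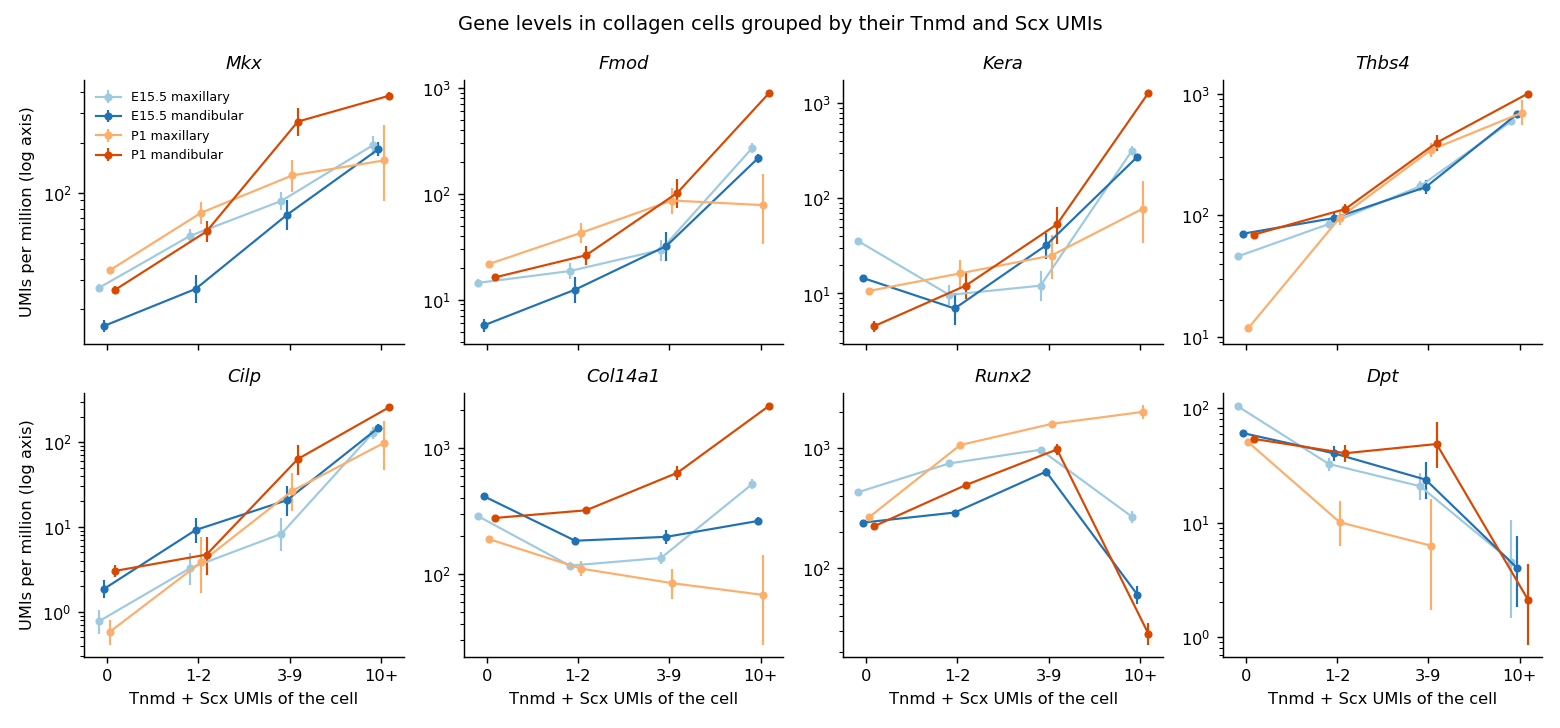
Levels (CPM, log axis) of 8 genes in collagen cells with 0, 1-2, 3-9 and 10 or more Tnmd and Scx UMIs, with 1 line per library and bars for the exact 95% Poisson interval. Groups with 0 UMIs are not drawn; Thbs4 rises over the steps in every library, while Runx2 drops at 10 or more UMIs in 3 of the 4.

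The chosen cells were then split by which of the 2 markers they held. Both markers belong to the rule, so the split describes the cells and cannot test the label of tendon and ligament progenitors. Scx was detected in 87.2%, 97.3%, 50% and 91.5% of cells with 10 or more Tnmd and Scx UMIs. Over all chosen cells it was detected in 59.1%, 76.5%, 48.8% and 84%. Marker class and marker count were not separated. In cells with both Tnmd and Scx, Fmod had 205, 207, 155 and 859 CPM, Kera 223, 269, 83.9 and 1233, and Cilp 94.4, 145, 96.8 and 253. In cells with Tnmd alone the same genes had 33.1, 25.9, 19.5 and 449 CPM, 27.4, 4.71, 24.4 and 670 CPM, and 2.16, 2.35, 14.6 and 123 CPM. These 3 matrix genes were thus higher in the cells with both markers than in those with Tnmd alone in each library. Among the unshared P1 maxillary cells, 22 with both markers and 10 with Tnmd alone, Kera was not higher with both, at 156 and 245 CPM (13 and 8 UMIs). Fmod stood at 144 and 61.3 CPM (12 and 2 UMIs) and Cilp at 71.8 and 30.6 CPM (6 and 1 UMI), counts too low to show a difference.

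Cells with Tnmd alone had more RNA of Runx2, Omd and Alpl. Runx2 stood at 1513, 879, 2099 and 764 CPM in them against 409, 79.6, 1032 and 33.9 in cells with both markers. Omd, osteomodulin, a proteoglycan of mineralized tissue, stood at 421, 182, 869 and 168 CPM against 198, 11.2, 413 and 42.0. Alpl, the alkaline phosphatase of mineralizing cells, stood at 251, 168, 144 and 36.9 CPM against 79.1, 4.17, 103 and 13.5. All 3 genes were higher in the cells with Tnmd alone in each library. In the unshared P1 maxillary cells Runx2 likewise stood at 1348 CPM with Tnmd alone and 144 CPM with both markers. The summed level of the 14 genes of the osteoblast and mineral list was 1832, 1130, 2342 and 1008 CPM in the cells with Tnmd alone and 581, 187, 1220 and 205 CPM in those with both, with Runx2 the most abundant gene. Runx2 and Alpl held most of this sum in the cells with Tnmd alone, and Sp7, an osteoblast transcription factor, stood at 25.2, 15.3, 56.0 and 24.6 CPM there against 4.86, 0.417, 25.8 and 2.51. Col13a1 had the opposite direction at E15.5, with 8.64 and 35.3 CPM in the cells with Tnmd alone against 59.7 and 86.3, and at P1 its counting intervals overlapped. Over all chosen cells Bglap and Ifitm5, osteoblast markers, were at 0 to 4.04 and 1.35 to 16.0 CPM, and 3, 3, 6 and 1 genes of the list were at 0. For the cells with Tnmd alone in the E15.5 libraries and in the P1 maxillary library these markers went against the label, whereas in the P1 mandibular library such cells also had high Fmod and Kera. The 12 dental papilla and follicle genes summed to 3304, 2883, 10005 and 2980 CPM with Tnmd alone, against 1785, 820, 2762 and 791 with both markers. The 7 pericyte genes summed to 149, 534, 112 and 400 CPM against 82.6, 30.8, 38.7 and 45.8. Over the P1 maxillary cells these sums were 6696.5 and 226.9 CPM, and 2048 and 62.3 CPM in the unshared ones. The part of these genes in the label was not tested.

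**Figure D4:**
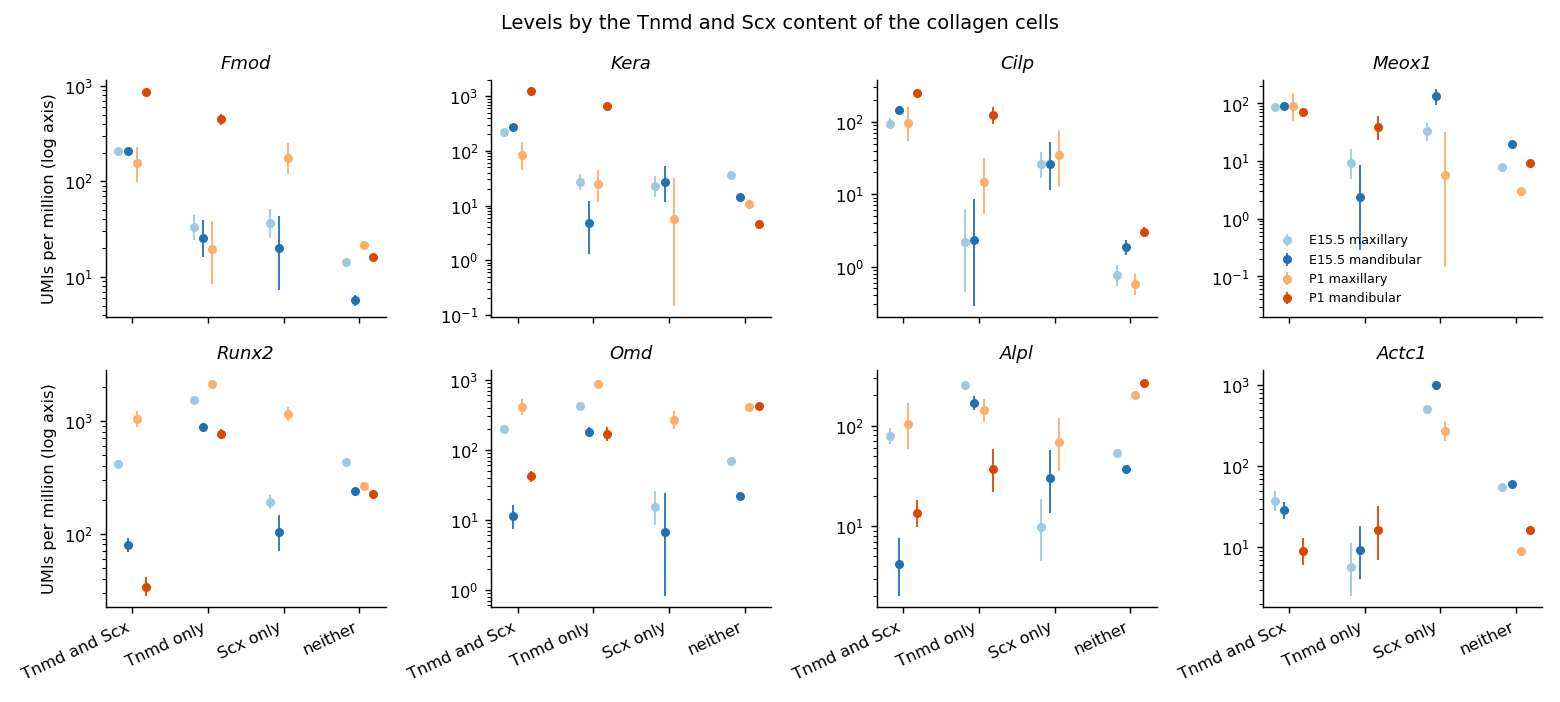
Levels (CPM, log axis) of 8 genes in collagen cells with both Tnmd and Scx, Tnmd only, Scx only or neither, with bars for the exact 95% Poisson interval and 1 series per library. Classes of under 10 cells or with 0 UMIs are not drawn; Kera and Cilp are highest with both markers in each library drawn, Runx2 with Tnmd only, and Actc1 with Scx only at E15.5.

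Summed over the class, cells with Scx alone carried muscle RNA at E15.5. At least 2 UMIs of the muscle precursor genes named below were found in 14 of the 60 such cells in the E15.5 maxillary library. In the E15.5 mandibular library this held for 4 of 19. Of 7471 genes compared between Tnmd-positive and Scx-only cells in the E15.5 maxillary library (248 and 60 cells), 473 (6.33%) were at least 2-fold higher in the Tnmd-positive cells and 300 (4.02%) were lower. All 13 measured skeletal muscle genes were lower in the Tnmd-positive cells, with a median log2 ratio of -4.59. Myog, the factor of myoblast differentiation, had the lowest ratio, -5.97 (-7.31 to -4.89), and Fitm1, Pitx3, Scn3b and Tnni1 followed at -5.53 or below. The summed level of the 16 muscle genes was 1793, 3216, 1539 and 1094 CPM in Scx-only cells, and 127, 92.5, 6.45 and 223 CPM in cells with both markers. The most abundant muscle gene over all chosen cells was Actc1 (141 and 107 CPM) at E15.5, Myog (75.6 CPM) in the P1 maxillary and Acta1 (114 CPM) in the P1 mandibular cells, and 0, 0, 0 and 1 of the 16 were at 0. The Myog of the P1 maxillary library came from 1 cell with a shared barcode, and Myog and Actc1 had 0 UMIs in the 35 unshared cells. The Scx-only class of the P1 mandibular library held 3 cells.

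Barcodes with at least 2 UMIs of the muscle precursor genes Pax7, Myf5, Myod1, Myog, Mymk and Mymx numbered 17, 8, 1 and 4 among the chosen cells (5.52%, 3.36%, 1.22% and 1.14%), and 14, 4, 1 and 1 of them were Scx-only. In the other collagen cells such barcodes made up 3.09%, 12%, 0.408% and 3.13%. Whether they are muscle precursors that express Scx or droplets with 2 cells was not tested. In the Tnmd-positive cells of the E15.5 maxillary library 8 of 24 tendon matrix genes were higher and 2 lower than in the Scx-only cells. These were Fmod, Dcn, Lum, Kera, Thbs4, Chodl, Matn4 and Htra3, against Tnc and Ecm2. The genes with the largest ratios in this direction were Cadps2 and Camk4, a secretion factor and a calcium-dependent kinase, at 5.26 and 5.05 on the log2 scale, with intervals of 2.75 to 10.6 and 2.54 to 10.4 that reflect few UMIs.

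Endothelial, immune and epithelial markers were low in the chosen cells. The 8 endothelial genes summed to 19.5, 43.1, 29.7 and 26.7 CPM, the 8 immune genes to 20.3, 11, 13.5 and 10.2 CPM, and the 10 epithelial genes to 69.4, 13.2, 51.3 and 51.4 CPM. Their most abundant genes were Egfl7 and Kdr among the endothelial, Fcer1g, Csf1r and Tyrobp among the immune genes and, in the P1 mandibular library, Krt14 among the epithelial genes, and these sums were partly fixed by the rule, which used Pecam1, Ptprc and Epcam. The 8 glial genes summed to 52.3, 17.5, 18.9 and 23.7 CPM, below the 144, 126, 97.6 and 196 CPM of the other collagen cells. Hemoglobin RNA was present in all groups, with 3404, 6994, 1232 and 5291 CPM of Hbb-bs in the chosen cells and 6939, 7307, 1478 and 2877 in the others, and its part in the results was not tested. In the 35 unshared P1 maxillary cells the 7 erythroid genes summed to 374 CPM, against 2019 CPM over all 82. There the glial genes summed to 7.79 CPM and the immune genes to 38.9 CPM. Pericyte genes, 7 in number with Rgs5 or Notch3 the most abundant, summed to 117, 155, 227 and 92.4 CPM against 178, 186, 288 and 305. They were not low in every class of chosen cells. In cells with Tnmd alone they summed to 149, 534, 112 and 400 CPM, and in Scx-only cells to 121, 73.0, 663 and 57.6 CPM. The unshared P1 maxillary cells stood at 62.3 CPM.

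Cartilage RNA was of interest because the enthesis, where tendon meets bone, has fibrocartilage. Col2a1, the cartilage collagen, had 36.0, 36.9, 29.7 and 308 CPM in the chosen cells and was detected in 50.7% of the P1 mandibular ones, against 0.542% of immune cells. It was higher there than in the other collagen cells by 7.04 (6.76 to 7.33) on the log2 scale, while in both E15.5 libraries its log2 ratio was -0.30 and -0.82. The E15.5 shares of cells ran the other way, as Col2a1 was detected in 19.5% and 26.5% of the chosen cells and in 4.50% and 3.96% of the other collagen cells, and in 0.631% and 1.93% of immune cells. Thinned to 2000 UMIs these shares were 5.84% and 8.05% of the chosen cells and 1.41% and 1.60% of the others. In the P1 maxillary library Col2a1 was detected in 17.1% of the chosen and 3.66% of the other collagen cells, with a log2 ratio of 1.08 (0.40 to 1.69), but without shared barcodes the chosen cells stood at 77.9 CPM, from 10 UMIs, against 61.5 in the others, a log2 ratio of 0.34 (-0.72 to 1.23). Acan, aggrecan, had 8.27, 7.88, 23.0 and 54.7 CPM. Sox9, the chondrogenic factor, had 15.6 CPM in the P1 mandibular cells against 113 in the other collagen cells, and Matn1, a cartilage matrix protein, had 0 UMIs in all 979 cells. Col9a1, another cartilage collagen, stood at 2.13, 0.563, 2.70 and 0.539 CPM. The P1 mandibular cells thus carried Col2a1 and some Acan without Matn1, Col9a1 or a raised level of Sox9.

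The second comparison, of P1 with E15.5, asked how the chosen cells changed with stage. Among 6703 genes measured in both jaws 40 (0.597%) were at least 2-fold higher at P1 in both jaws and 50 (0.746%) were lower, and without the 47 shared cells these counts were 20 and 52. In the mandible 284 of 7044 genes (4.03%) were higher and 378 (5.37%) lower, and in the maxilla 348 of 7588 (4.59%) were higher and 230 (3.03%) lower. The jaws differed in what moved: tendon matrix genes were higher at P1 in the mandibular cells, and few of them were in the maxillary ones. The difference between jaws was not tested.

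In the mandibular cells 15 of 26 tendon matrix genes were at least 2-fold higher at P1 and 0 lower, with a median log2 ratio of 1.18, against -0.14 for all genes tested. Kera was 2.63 (2.51 to 2.75) higher, from 185 to 1148 CPM, and Fmod 2.43 (2.30 to 2.57) higher, from 148 to 797 CPM. Sparc, a collagen-binding matrix protein, went from 1989 to 8850 CPM, Dcn from 1259 to 3601, Bgn, biglycan, from 442 to 1374, and Postn, periostin, from 1348 to 3527. In the other mandibular collagen cells the log2 ratio of P1 over E15.5 was -1.67 for Kera and 1.50 for Fmod, so that Kera had the opposite direction in the cells without Tnmd and Scx. The share of strongly marked cells was also larger, as cells with 10 or more Tnmd and Scx UMIs were 62.2% of the chosen cells at E15.5 and 87.2% at P1. Among mandibular cells with 10 or more UMIs alone, Kera went from 274 to 1284 CPM and Fmod from 215 to 884 CPM, so the stage difference was also present within that class.

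Collagens followed the same direction in the mandible, with 8 of 17 measured genes higher and 1, Col8a1, lower. Col14a1, a collagen on the fibril surface, went from 239 to 1987 CPM (log2 ratio 3.05, 2.95 to 3.16), and Col11a2, a minor fibrillar collagen, from 16.6 to 355 CPM. The rule genes Col1a1 and Col1a2, the chains of type I collagen, went from 5237 to 19544 and from 4216 to 16759 CPM. The collagen processing genes Pcolce, Pcolce2 and Creb3l1 were at least 2-fold higher and P4ha2 lower among 20 measured. Among 9 measured tendon transcription factors Mkx, Egr1 and Tbx15 were higher and 0 lower. Mkx went from 142 to 370 CPM and Egr1 from 333 to 727.

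Cell cycle genes went the other way, with 22 of 29 measured genes at least 2-fold lower at P1 in the mandibular cells and 0 higher. Top2a, a topoisomerase of dividing cells, went from 277 to 94.2 CPM and Mki67, the proliferation marker, from 146 to 71.9. The summed level of the 30 cell cycle genes in the chosen mandibular cells went from 2169 CPM at E15.5 to 992 CPM at P1, and in the other mandibular collagen cells from 1968 to 1220. The log2 ratios of Acta2, Tagln and Runx2 were -2.01, -1.60 and -1.03. The stress genes Fos, Fosb, Junb, Hspa1a and Hspa1b were at least 2-fold higher at P1 among 11 measured, and their part in these changes was not tested.

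In the maxillary cells 2 of 23 tendon matrix genes, Thbs1 and Tgfbi, were at least 2-fold higher at P1 and 2, Kera and Ecrg4, were lower, with a list median of -0.04. Kera went from 102 to 32.4 CPM over all 82 cells, but stood at 171 CPM in the 35 unshared cells, 0.75 (0.06 to 1.37) higher than at E15.5. Fmod went from 100.3 to 85.1 CPM, with 117 in the unshared cells. In those cells 604 of 7720 genes (7.82%) were at least 2-fold higher than at E15.5 and 821 (10.6%) lower. Of 24 tendon matrix genes 3, Ptx4, Htra3 and Loxl2, were higher, Tnc was lower, and the list median was 0.24. The 3 hedgehog pathway genes Ptch1, Gli1 and Hhip and the 4 Wnt target genes Axin2, Lef1, Tcf7 and Apcdd1 were at least 2-fold higher among 9 and 8 measured genes over all 82 cells. In the unshared cells 0 of 6 measured Wnt targets were higher and 2, Lef1 and Znrf3, were lower, with Lef1 at 31.2 CPM against 207 over all 82 cells and 63.0 CPM at E15.5. Ptch1, the hedgehog receptor and a target of its signal, went from 167 to 506 CPM over all 82 cells, but stood at 77.9 in the unshared ones. Of the 9 measured hedgehog pathway genes 0 were higher in the unshared cells and 2, Ptch1 and Gli1, were lower. Cell cycle genes also differed, with 10 of 30 at least 2-fold higher and 2 lower in the unshared cells, against 3 higher and 3 lower of 29 over all 82. The hedgehog, Wnt target and Kera values of the maxillary P1 cells thus depended on the 47 shared cells.

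**Figure D5:**
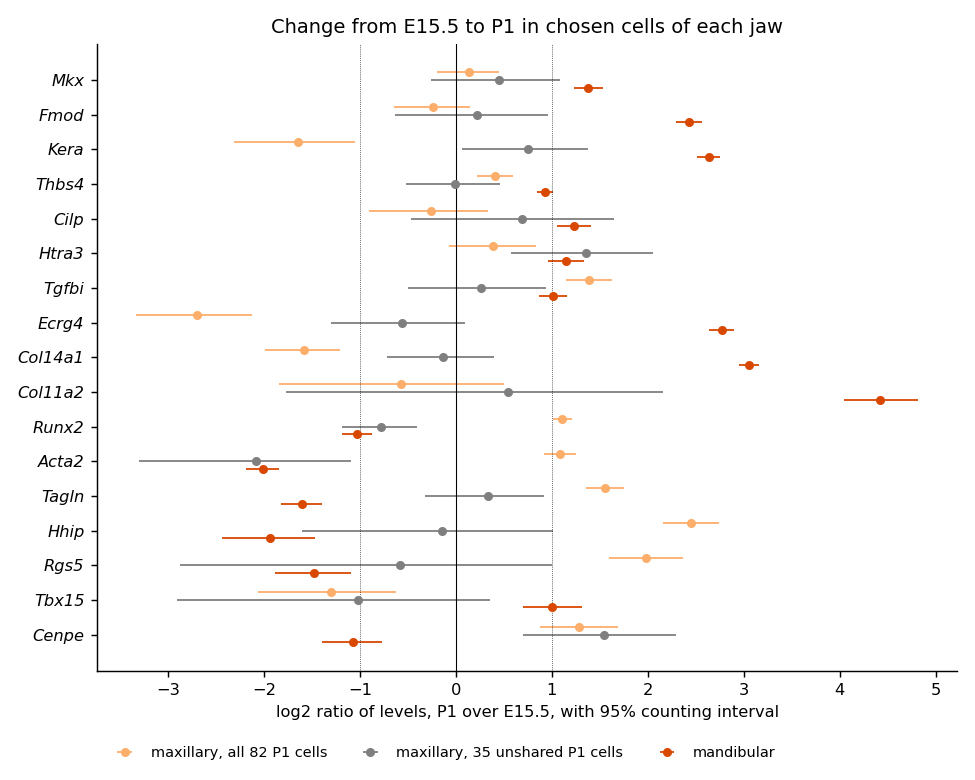
Log2 ratio of P1 over E15.5 in the chosen cells for 17 genes, with bars for the exact 95% counting interval, in the maxillary cells (all 82, and the 35 unshared) and the mandibular cells. Dotted lines mark a 2-fold change; Kera, Ecrg4 and Col14a1 lie on opposite sides of 0 in the 2 jaws for all 82 cells, and for the 35 cells Kera is above 0.

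The shared and unshared cells of the P1 maxillary library differed in several genes. Runx2 stood at 1905 CPM in the 47 shared cells and 444 in the 35 unshared ones, and Igfbp5, a binding protein of insulin-like growth factors, at 4924 and 288. Omd stood at 706 and 280 CPM, Acta2 at 665 and 62.3, and Wif1 at 536 and 7.79. Kera went the other way, at 3.27 CPM in the shared and 171 in the unshared cells. Thbs4, Mkx and Alpl were less far apart, at 417 and 296 CPM, at 124 and 164 CPM and at 114 and 132 CPM.

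The 10 genes with the highest ratios at P1 in both jaws are given next. Amelx, the enamel protein amelogenin made by ameloblasts, went from 2.40 to 24.3 CPM in the maxillary and from 2.25 to 144 CPM in the mandibular cells, and was detected in 74.4% of the P1 mandibular chosen cells. In the immune cells of that library it was at 167 CPM, so the Amelx of the chosen cells lay below the level found in cells that should lack it. Nupr1, a stress-responsive chromatin protein, went from 18.9 to 136 CPM and from 6.48 to 110 CPM, in the unshared maxillary cells to 31.1. Wif1 went from 47.2 to 444 CPM and from 20.3 to 165 CPM, but stood at 7.79 CPM in the unshared cells. Srpx2, Neat1, Cpt1a, Nr1d2, Bmp2, Grik1 and Nebl completed the 10 highest, and in the 35 unshared cells Nr1d2 and Nebl had 0 UMIs, while the maxillary log2 ratio turned to -1.38 for Srpx2 and -0.42 for Cpt1a. Among the genes lower at P1 in both jaws were Igf2bp1, a fetal RNA-binding protein, from 30.9 to 5.4 and from 36.9 to 9.43 CPM, and Cited1, a transcriptional coregulator, from 37.9 to 10.8 and from 32.1 to 7.0 CPM. Crabp2, a retinoic acid binding protein, went from 59.0 to 17.6 and from 41.7 to 9.96 CPM. The histone gene Hist1h3c, Hpse2, Ppp2r2b, Tnnt1, Chrm3, Opcml and the Y-linked Uty were also lower. The direction turned for Chrm3 in the unshared maxillary cells (0.71) and for Tnnt1 without muscle precursors (0.71) and in mandibular cells with 10 or more UMIs (1.90), and the sexes of the pooled animals were not given.

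The third comparison set the jaws side by side. At E15.5, 263 of 7225 genes (3.64%) were at least 2-fold higher in the maxillary than in the mandibular chosen cells and 93 (1.29%) were lower. Of 22 measured jaw and positional genes 7 were higher in the maxillary cells, including Pax9, a tooth mesenchyme factor, at 79.0 against 11.8 CPM, and Lhx6 at 33.6 against 5.63. Another 5 were lower, including Pitx1, a factor of the lower jaw, at 35 against 76.9 CPM, and Ebf1 at 737 against 1644. Hand2os1, the transcript beside the lower-jaw gene Hand2, had 0 UMIs in the maxillary and 20.3 CPM in the mandibular cells. Pitx1 and Hand2os1 were thus higher in the library labelled mandibular. Ica1l, Ccl11, Gm38560, Ccn3 and Mfap5 completed the 6 genes with the lowest ratios, and Ccn3, a secreted CCN family regulator, had a log2 ratio of -3.28. The ratio of Mfap5 turned to 0.13 in cells with 10 or more Tnmd and Scx UMIs.

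Wnt inhibitors and modulators were higher in the maxillary cells for 7 of 11 measured genes, with a median log2 ratio of 1.26, and 0 were lower. Stress genes moved in the same direction, as 7 of 11 (Fos, Fosb, Junb, Hspa1a, Hspa1b, Dnajb1 and Ier2) were at least 2-fold higher in the maxillary cells and 0 lower, with a median of 1.06, and their part in the result was not tested. Fos stood at 878 against 383 CPM. Sostdc1, a secreted inhibitor of BMP and Wnt signals, had 234 CPM against 69.6, and Wif1 47.2 against 20.3. Of 3 measured osteoblast and mineral genes Runx2 and Alpl were higher, at 765 against 273 and 126 against 45.6 CPM, and Col13a1 was lower. Of 24 measured tendon matrix genes 3 were lower, Tnc (tenascin C of developing tendon), Ptx4 and Cilp (43.5 against 100.5 CPM), and Matn4 was higher, with a list median of -0.26. Cells with Tnmd alone were 40.9% of the maxillary and 23.5% of the mandibular chosen cells, and their part in these differences was not tested. Within the classes Runx2 was also higher in the maxillary cells, at 409 against 79.6 CPM with both markers and 1513 against 879 CPM with Tnmd alone. Lingo2, Pcp4, Lrrtm4, Cxcl5, Avil and Cpa6 had the highest ratios, and Lingo2 stood at 141 against 10.4 CPM.

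At P1, 833 of 7460 genes (11.2%) were at least 2-fold higher in the maxillary cells and 372 (4.99%) were lower, or 1240 of 7506 (16.5%) and 777 (10.4%) with the 35 unshared cells alone. Of 26 tendon matrix genes 15 were lower in the maxillary cells and 3, Lum, Matn4 and Loxl2, were higher, with a list median of -1.17. With the 35 unshared cells 12 were lower and 3 higher, with a median of -0.93, so this difference was also present without the shared barcodes. The summed level of the 30 genes of the list was 9345.5 CPM in the maxillary and 10496 CPM in the mandibular cells with 3 to 9 Tnmd and Scx UMIs. In cells with 10 or more UMIs, 12.2% of the maxillary and 87.2% of the mandibular chosen cells, it was 8900 and 26302 CPM. These were 10 maxillary and 306 mandibular cells, and 4 of the 10 had an unshared barcode. Cells with Tnmd alone were 51.2% of the maxillary and 16.0% of the mandibular chosen cells. In the maxillary library they were 32 of the 47 shared and 10 of the 35 unshared cells. Of 5 measured osteoblast and mineral genes Runx2, Sp7 and Alpl were higher in the maxillary cells and Col13a1 and Smpd3 lower (median 2.84), and in the unshared cells Runx2, Alpl and Phex were higher and 0 lower (median 1.73). Cell cycle genes were higher for 7 of 26, with 0 lower, and for 16 of 27 in the unshared cells, and the part of these genes in the other differences was not tested. Of 9 dental papilla and follicle genes 7 were higher and 1 lower, with a median of 2.88 that came with Igfbp5 at 4120 against 291 CPM. The Igfbp5 level was 288 CPM in the unshared cells, so its difference from the mandible rested on the shared ones. Without them 4 of the 9 genes were higher and 1 was lower, with a median of 0.45.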

How the data were processed

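The 4 libraries were made with the Chromium Next GEM Single Cell 3′ v3.1 kit. The authors aligned and counted the reads with Cell Ranger 7.0.1 against mm10 and its Cell Ranger reference annotation, and the deposited filtered matrices hold raw UMI counts for 32285 genes. Introns are counted by default in that version, and the setting was not given in the sources used here. All columns belonged to the 4 samples, and 0 columns belonged to another series.

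UMIs were summed over the cells of a group within a library and divided by the group's total (CPM), so a cell with more UMIs weighs more. A gene was compared where it reached 20 CPM in either group, and was counted as higher or lower at 2-fold. A group with 0 UMIs was set to 3 counts, which makes its ratio a bound. Counts of genes 2-fold apart used groups of at least 20 cells, and levels are also given for smaller groups, with their number of cells. Intervals are exact 95% Poisson or binomial intervals, which cover counting error only, and the single library per group gave no test between groups. Per-cell shares were also computed after thinning to 2000 UMIs, which left out barcodes with fewer UMIs.

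Barcodes were scored for doublets by Scrublet (scanpy 1.11.5), and the top scores of each library were marked. The share marked was preset at 0.8% per 1000 barcodes, so library size set the number. Marked were 948, 505, 2800 and 3011 of the deposited barcodes, in the order E15.5 maxillary, E15.5 mandibular, P1 maxillary and P1 mandibular. Among them were 38, 25, 13 and 79 chosen cells. Marked barcodes were not removed. Their removal was an alternative, which left 8821, 6182, 14061 and 7837 kept barcodes. The named genes were the 10 genes of the rule, members of 27 gene lists, and the genes with the most extreme smaller ratio over libraries or jaws: 15 in each direction against the other collagen cells, 10 for stage, 6 for jaw and 8 for Tnmd-positive against Scx-only cells. Rule genes, mitochondrial and ribosomal protein genes and Xist were left out of that ranking. The members and the lists were chosen with earlier results of these data known. Further tools were numpy 2.4.6, pandas 2.3.3, scipy 1.17.1 and matplotlib 3.10.9, and the calculations were tested on simulated data. A few named genes are not reported here.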

Additional observations from a re-analysis of the deposited data

Results flagged for a closer look

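Genes among the lists and named genes that changed at least 2-fold in opposite directions between the jaws are given here as log2 ratios of P1 over E15.5 in the chosen cells. Each jaw and stage is 1 library, and the difference between jaws was not tested. Over all 82 P1 maxillary cells, Ecrg4 was at -2.69 in the maxilla and 2.77 in the mandible, Kera at -1.65 and 2.63, Col14a1 at -1.58 and 3.05, and Tbx15 at -1.30 and 1.00. Hhip was at 2.45 and -1.94, Rgs5 at 1.98 and -1.48, Tagln at 1.56 and -1.60, Cenpe at 1.28 and -1.08, Runx2 at 1.11 and -1.03, and Acta2 at 1.09 and -2.01. In the 35 P1 maxillary cells with an unshared barcode the maxillary ratios were -0.56 for Ecrg4, 0.75 for Kera, -0.13 for Col14a1, -1.02 for Tbx15, -0.14 for Hhip, -0.58 for Rgs5, 0.33 for Tagln, 1.55 for Cenpe, -0.78 for Runx2 and -2.08 for Acta2. Cenpe and Tbx15 thus kept an opposite 2-fold change there, and the other 8 did not.

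Outside the cells used, 4 of the barcodes removed from the P1 mandibular library because the P1 maxillary library also held them met the limits on all 10 genes. All 4 were among the 82 cells chosen in the P1 maxillary library.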

How the results depend on the processing

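No paired analysis was run, as each group is 1 library. Depth limits the P1 maxillary cells most, as the 35 unshared ones hold 128397 UMIs in all. The genes ranked as most extreme in a comparison gave 845 ratios under the 13 settings tried. Of these 804 kept their direction and size, 30 moved and 11 changed sign, with the bounds of Clec3b and Emilin2 among the last. The cause was not tested except where given. Other list members were not counted here. Without shared barcodes Kera, Acta2, Runx2, Rgs5 and Hhip also changed sign for stage in the maxilla. Acta2 and Bmpr1b did so there against the other collagen cells. The limit of 10 or more Tnmd and Scx UMIs and the removal of muscle precursors were chosen after seeing the data.

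The shares chosen, in the order E15.5 maxillary, E15.5 mandibular, P1 maxillary and P1 mandibular, were 4.86%, 4.51%, 0.916% and 4.19% at 2 or more Tnmd and Scx UMIs, and 1.78%, 2.90% and 0.291% in the first 3 at 5 or more. They were 0.971%, 2.25%, 0.0607% and 3.25% at 10 or more. Among kept barcodes with at least 2000 UMIs, thinned to 2000, those with 1 or more such UMI made up 5.11%, 5.19%, 2.32% and 5.72%. The P1 maxillary share was 0.366% with shared barcodes removed from both P1 libraries.

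The 49 genes 2-fold apart from the other collagen cells became 28 at 2 or more UMIs, 74 at 5 or more, 273 in 3 libraries at 10 or more, 77 with a mean per cell, 21 at 50 CPM and 110 at 5 CPM. The 90 stage genes became 29 at 50 CPM, 263 at 5 CPM and 771, in the mandible alone, at 10 or more UMIs. The 356 jaw genes at E15.5 became 166 and 967 at 50 and 5 CPM. The 1205 at P1 became 578 and 2553, and 2017 without the shared barcodes. The 773 genes of Tnmd-positive against Scx-only cells became 327 and 1882 at 50 and 5 CPM, and 82 in 3 libraries at 2 or more UMIs. Fewer or more genes were tested under the CPM limits.

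Without shared barcodes Clec3b and Emilin2 had 0 UMIs in the 35 P1 maxillary chosen cells, and their values against the other collagen cells (1.79 and 0.037) are bounds whose sign comes from the 3 counts that stand in for 0, not reversals. Reversed log2 ratios for stage were -2.60 for Wif1, -1.38 for Srpx2, -0.42 for Cpt1a and 0.71 for Chrm3, which had 1, 1, 1 and 5 UMIs in those 35 cells. At 10 or more UMIs they were -0.32 for Tagln, 1.90 for Tnnt1 and 0.13 for Mfap5, at 2 or more -0.36 for Kcnn2, and without muscle precursors 0.71 for Tnnt1. At 5 and 10 or more UMIs the Tnmd-positive against Scx-only comparison, and at 10 or more the P1 jaw comparison, could not be run for lack of cells.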
